A study of Mus musculus with 5 samples.

Results

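The HoxC cluster is a run of 9 homeobox genes on mouse chromosome 15: Hoxc13, Hoxc12, Hoxc11, Hoxc10, Hoxc9, Hoxc8, Hoxc6, Hoxc5 and Hoxc4. Its lines were taken by gene symbol from tables of SUZ12 peaks, and all 9 genes were found, of 1935 genes with a linked peak in any table. The protein SUZ12 had been located by ChIP-seq, sequencing of the DNA that its antibody brings down, in Mbd3 knock-out mouse embryonic stem cells (ESCs), male and of strain 129SV, grown in ESC medium with LIF. The libraries differ in what these cells carried: ΔCC and ΔMBD (deltaCC and deltaMBD in the labels) are forms of MBD3a without the coiled-coil or the methyl-CpG-binding domain, WT is taken as full-length MBD3 and GFP as the control without MBD3. There was 1 library per group. Whether each came from 1 clone or several, and how the constructs were expressed, is not given in the sources used here. An input library from cells labelled EBRTcH3 was not used here.

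SUZ12 is a core subunit of Polycomb repressive complex 2 (PRC2), which methylates lysine 27 of histone H3 and keeps developmental genes silent. MBD3 is a subunit of the NuRD complex, which joins chromatin remodelling with histone deacetylation. Hox genes encode transcription factors that give cells their position along the body axis, and in mouse ESCs the Hox clusters are silent and are textbook PRC2 targets. Within a cluster, gene order follows the body axis: Hoxc4 is the most anterior gene of HoxC and Hoxc13 the most posterior.

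Each table gives, for a gene, the names of its linked peaks and their signed distances from the transcription start site in bp, positive downstream. A gene is called listed when a peak was centred within 5 kb of its start site and linked to it. Peak heights, widths and read numbers are not in the tables, so the depth and the strength of binding are unknown. A number of peaks is thus not an amount of SUZ12. Each group has 1 library, so differences are those between single libraries, without replicates and without tests. Percentages carry exact 95% binomial (Clopper-Pearson) intervals, which cover counting error over peaks only.

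The tables held 1221 genes in ΔCC, 1677 in ΔMBD, 1664 in WT and 1051 in GFP, with 2243, 2986, 2671 and 1893 distinct peaks in the same order. Of the pluripotency genes Pou5f1, Nanog, Sox2, Zfp42, Esrrb and Klf4, Esrrb alone was listed, in every library. A peak table measures no expression, so these genes do not check the cell type. The targeted gene Mbd3 cannot be checked in it either.

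One of the 9 genes, Hoxc4, had an entry in the RefSeq promoter table (GRCm38.p6, chr15:103034145-103034444, plus strand). It runs from 250 bases before to 50 bases after the RefSeq start. The sequence is shown because Hoxc4 had the most SUZ12 peaks of the cluster in ΔCC, ΔMBD and WT, and because CpG-rich DNA is where PRC2 is usually found in ESCs. Capitals mark the dinucleotide CG.
Hoxc4 promoter: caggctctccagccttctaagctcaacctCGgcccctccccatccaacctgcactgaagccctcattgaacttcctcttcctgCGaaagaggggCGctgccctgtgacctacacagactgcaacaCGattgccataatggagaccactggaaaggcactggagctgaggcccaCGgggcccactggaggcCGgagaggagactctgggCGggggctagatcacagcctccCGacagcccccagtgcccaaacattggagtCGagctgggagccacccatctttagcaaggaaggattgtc
It holds 9 CG in 300 bases and 60.3% G or C. The median over 32851 RefSeq promoters of the same length was 7 CG and 52.7% G or C, and 45.8% of them held at least 9. By number of CG the printed stretch was thus not unusual among promoters. The peak centre closest to the Hoxc4 start lay at +523 bp in ΔCC, +1077 bp in ΔMBD, +461 bp in WT and -377 bp in GFP. In none of the 4 libraries was a Hoxc4 centre inside the printed stretch, if the start site of the tables, which are on build mm9, is the RefSeq one.

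All 9 HoxC genes were listed in ΔCC, 8 in ΔMBD, 7 in WT and 9 in GFP. In the whole list of protein-coding symbols, 5.37% were listed in ΔCC, 7.37% in ΔMBD, 7.32% in WT and 4.61% in GFP. Hoxc13, Hoxc12, Hoxc11, Hoxc9, Hoxc5 and Hoxc4 were listed in every library, 6 of 9, as were 46.5% of the 1935 listed genes. Hoxc8 was missing from ΔMBD, and Hoxc10 and Hoxc6 were missing from WT.

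The number of distinct HoxC peaks separated the libraries more than the number of genes did. ΔCC had 39 and ΔMBD 16, while WT had 18 and GFP 41. HoxC peaks were 1.74% of the listed peaks in ΔCC (interval 1.24 to 2.37) and 0.536% in ΔMBD (0.307 to 0.869). They were 0.674% in WT (0.400 to 1.06) and 2.17% in GFP (1.56 to 2.93). ΔCC and GFP had the shorter gene lists of the series and the larger numbers of HoxC peaks. At least 4 peaks were linked to 5 HoxC genes in ΔCC, 1 in ΔMBD, 1 in WT and 7 in GFP, while 9.91%, 6.2%, 3.79% and 7.8% of all listed genes had as many in the same order.

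**Figure D1:**
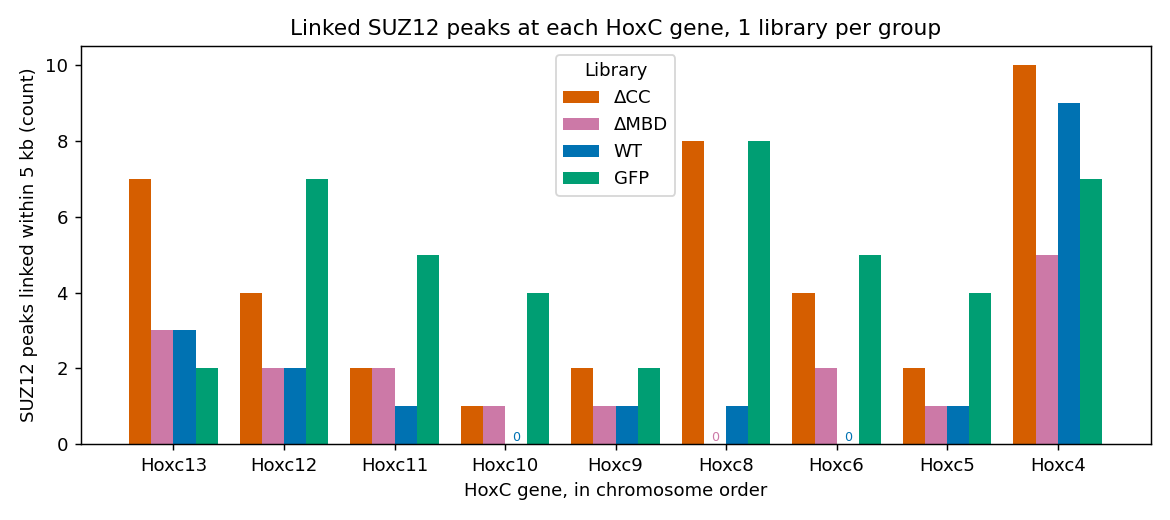
Bars give the number of SUZ12 peaks linked within 5 kb of each HoxC gene (y axis, count) in the ΔCC, ΔMBD, WT and GFP libraries, with genes in chromosome order on the x axis and no error bars, since each group is 1 library. From Hoxc12 to Hoxc5 the ΔMBD and WT bars reach 2 at most, while Hoxc8 has 8 peaks in ΔCC and 8 in GFP.

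The posterior genes are described first. Hoxc13, a regulator of hair and nail keratin genes, had 7 peaks in ΔCC, 3 in ΔMBD, 3 in WT and 2 in GFP. In ΔCC these were centred at -3524, -1271, -700, +944, +1777, +3958 and +4776 bp. In ΔMBD they lay at +1654, +2923 and +3714 bp, in WT at +549, +2860 and +4765 bp, and in GFP at +468 and +2751 bp. Upstream centres were thus listed at Hoxc13 in ΔCC and in none of the other 3 libraries. Hoxc13 was also the member at which GFP had the fewest peaks of the 4.

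Hoxc12, its neighbour, had 4 peaks in ΔCC, 2 in ΔMBD, 2 in WT and 7 in GFP. ΔCC centres lay at -4680, -3465, +322 and +3838 bp. ΔMBD centres lay at -4117 and -781 bp, against -4171 and -950 bp in WT, and those of GFP spread from -4048 to +4501 bp. All 4 libraries had a centre between -4680 and -4048 bp. ΔMBD and WT had no linked centre downstream of the Hoxc12 start, where ΔCC had 2 and GFP had 4.

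Hoxc11, a posterior gene of the hindlimb and tail region, had 2 peaks in ΔCC, 2 in ΔMBD, 1 in WT and 5 in GFP. ΔCC centres lay at +1454 and +4556 bp and ΔMBD centres at -4064 and +562 bp. The WT centre lay at +230 bp, and GFP centres at -4069, -3096, -1108, +1730 and +4402 bp. WT and ΔMBD had a centre within 1 kb of this start, and ΔCC and GFP had none.

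Hoxc10, which specifies lumbar motor neurons, had 1 peak in ΔCC at -3459 bp, 1 in ΔMBD at -546 bp, none in WT, and 4 in GFP at -3695, -2023, +1219 and +3863 bp. The ΔCC centre had a GFP neighbour 236 bp away, and the ΔMBD centre had none within 1 kb.

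Hoxc9, which sets the thoracic identity of motor neurons, varied least. It had 2 peaks in ΔCC at -4752 and +1293 bp, 1 in ΔMBD at -1242 bp, 1 in WT at -350 bp, and 2 in GFP at -688 and +4863 bp.

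Hoxc8, a gene of the brachial and thoracic region, varied most. It had 8 peaks in ΔCC, none in ΔMBD, 1 in WT at +265 bp, and 8 in GFP. ΔCC centres covered -4409 to +4262 bp with a median spacing of 1230 bp. GFP centres covered -4721 to +4163 bp with a median spacing of 726 bp. In both libraries they lay on both sides of the start site and reached nearly the whole window of 5 kb.

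Hoxc6 and Hoxc5 follow, genes of the forelimb and neck level of the body. Hoxc6 had 4 peaks in ΔCC, 2 in ΔMBD, none in WT and 5 in GFP. Hoxc5 had 2 in ΔCC, 1 in ΔMBD, 1 in WT and 4 in GFP. Both genes shared peaks, 1 in ΔCC, 1 in ΔMBD, none in WT and 3 in GFP, and no other HoxC peak was linked to 2 genes. Every shared peak put the Hoxc5 start 4336 bp downstream of the Hoxc6 start, which allows a common scale.

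On that scale, counted from the Hoxc6 start, ΔCC centres lay at -4838, -3648, -2473, +1289 and +8950 bp and ΔMBD centres at -3223 and +1760 bp. The WT centre lay at +5097 bp, and GFP centres at -4541, -1665, +1259, +2839, +3936 and +5951 bp. The absence of Hoxc6 from WT rests on a margin of 97 bp, because the WT centre lies just past 5000 bp from that start. ΔCC and GFP shared a centre to within 30 bp, at +1289 and +1259 bp, inside the stretch between both starts.

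Hoxc4, the anterior end of the cluster, did not follow the genes before it. It had 10 peaks in ΔCC, 5 in ΔMBD, 9 in WT and 7 in GFP, which in WT left 9 peaks for the 8 other genes together. ΔCC centres ran from -3977 to +4880 bp with a median spacing of 919 bp, and ΔMBD centres from -3151 to +3023 bp with 1272.5 bp. WT centres ran from -4977 to +3902 bp with 1083 bp, and GFP centres from -3008 to +3101 bp with 805 bp. The WT library, with at most 3 peaks at every other HoxC gene, was thus densely covered at Hoxc4.

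Some Hoxc4 centres recurred in all 4 libraries. One lay at +1176 bp in ΔCC, +1077 bp in ΔMBD, +1150 bp in WT and +1140 bp in GFP, a span of 99 bp. Another lay at -1694, -1638, -1630 and -1559 bp in the same order, a span of 135 bp. One more lay at -2989, -3151, -2811 and -3008 bp, a span of 340 bp. Of the 6 HoxC genes listed in every library, Hoxc4 alone had centres of all 4 libraries within 500 bp of each other, while 33% of the 900 genes listed in every library had such a set. At 1000 bp Hoxc12 joined it, and the share of the 900 genes was 75.7%. The 5 other HoxC genes in every library, with 1 to 7 peaks, thus had no such set at 500 bp. A set of this kind is also easier to find where a gene has more peaks. The 900 genes were not matched to Hoxc4 by number of peaks, so that part was not tested.

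**Figure D2:**
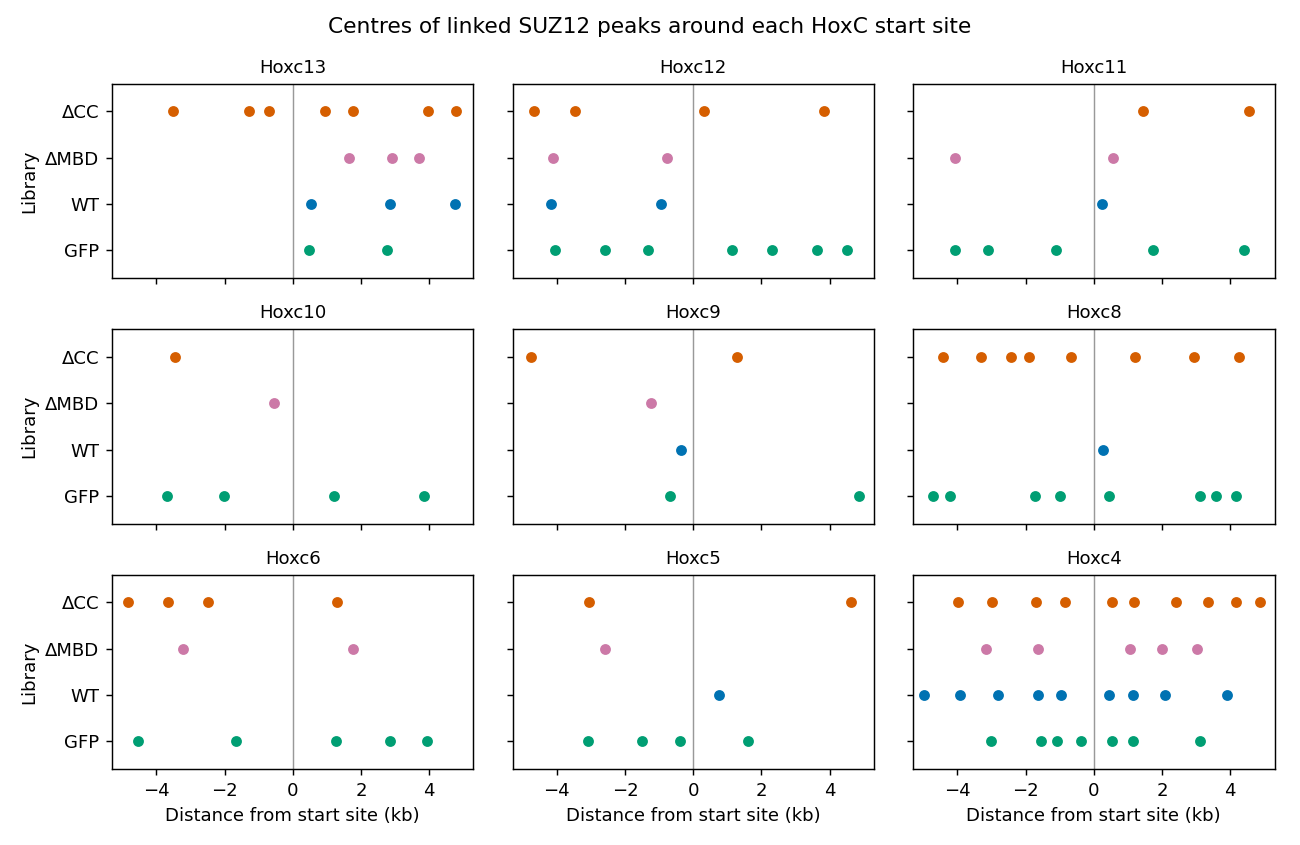
Points are the centres of linked SUZ12 peaks by signed distance from the start site (x axis, kb) for each HoxC gene, with the libraries ΔCC, ΔMBD, WT and GFP from top to bottom and the start site as a grey line. At Hoxc8 the ΔCC and GFP rows hold 8 points each and the WT row 1, while at Hoxc4 all 4 rows hold at least 5.

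Close to start sites the order of the libraries was another one. A peak centred within 1 kb was found at 4 HoxC genes in ΔCC (Hoxc13, Hoxc12, Hoxc8 and Hoxc4), 3 in ΔMBD (Hoxc12, Hoxc11 and Hoxc10), 7 in WT and 5 in GFP (Hoxc13, Hoxc9, Hoxc8, Hoxc5 and Hoxc4). In WT these were all the listed members. Of all listed genes, 72% had a peak within 1 kb in ΔCC, 72.4% in ΔMBD, 73% in WT and 67.9% in GFP. The HoxC genes were 4 of 9 in ΔCC, 3 of 8 in ΔMBD, 7 of 7 in WT and 5 of 9 in GFP. These are few genes, and a departure from the percentages over all genes was not tested.

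Counted by peaks, 6 HoxC centres lay within 1 kb in ΔCC, 3 in ΔMBD, 8 in WT and 7 in GFP. Between 1 and 2 kb there were 9 in ΔCC, 6 in ΔMBD, 2 in WT and 13 in GFP. Beyond 2 kb there were 24 in ΔCC, 7 in ΔMBD, 8 in WT and 21 in GFP. The larger numbers of ΔCC and GFP therefore lay over 1 kb from the start sites. The share within 1 kb was 15.4% in ΔCC (interval 5.86 to 30.5), 18.8% in ΔMBD (4.05 to 45.6), 44.4% in WT (21.5 to 69.2) and 17.1% in GFP (7.15 to 32.1). Over all genes it was 47.1% in ΔCC, 49.3% in ΔMBD, 52.6% in WT and 46.2% in GFP.

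**Figure D3:**
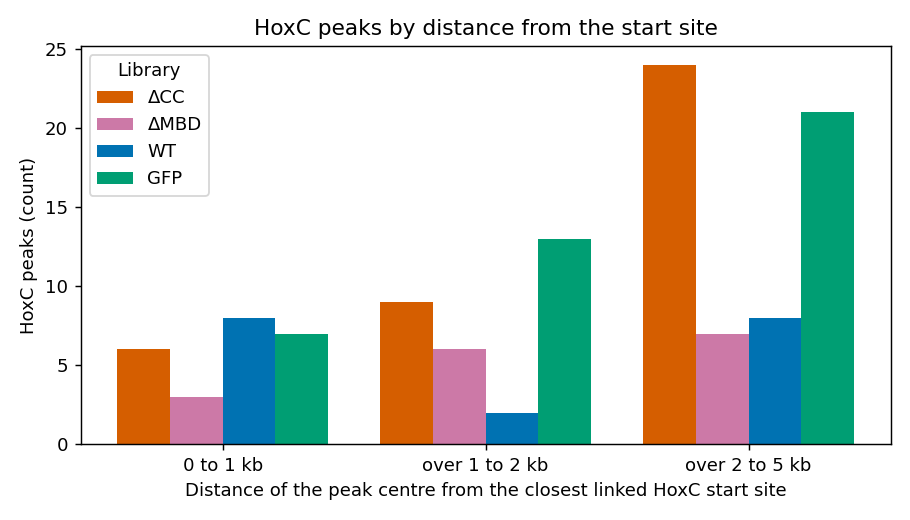
Bars give the number of HoxC peaks (y axis, count) by distance of the centre from the closest linked start site (x axis) in the ΔCC, ΔMBD, WT and GFP libraries. Within 1 kb the libraries have 6, 3, 8 and 7 peaks, and beyond 2 kb they have 24, 7, 8 and 21.

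The numbers in the peak names extend the view to peaks that were not linked to a HoxC gene. These numbers followed position at each of the 627 genes with at least 2 peaks in ΔCC, 752 in WT and 546 in GFP, and at 909 of 910 in ΔMBD. In HoxC they increased from Hoxc13 to Hoxc4 in every library. If they follow position between genes too, the cluster spanned 56 peaks in ΔCC, 30 in ΔMBD, 27 in WT and 53 in GFP. Of these, 17, 14, 9 and 12 in the same order were not linked to a HoxC gene.

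Counts of peak numbers differed most in the middle of the cluster, a division made after the values were seen. That stretch holds 7 of the 9 genes, and the counts were not scaled per gene or per bp. Per gene, the number of linked peaks differed between libraries by 5 at Hoxc13 and by 5 at Hoxc4. At the middle genes it differed by 1 (Hoxc9) to 8 (Hoxc8). From the first Hoxc12 peak to the last Hoxc5 peak there were 32 numbers in ΔCC, 14 in ΔMBD, 6 in WT and 39 in GFP. The 6 WT numbers were consecutive and linked: 2 to Hoxc12 and 1 each to Hoxc11, Hoxc9, Hoxc8 and Hoxc5. No further WT peak was thus centred between Hoxc12 and Hoxc5, on the condition above. In ΔMBD, 2 numbers without a HoxC link lay between the Hoxc9 centre at -1242 bp and the Hoxc6 centre at -3223 bp. They lay in the stretch that holds Hoxc8. Before Hoxc12 there were 11 numbers in ΔCC, 6 in ΔMBD, 6 in WT and 5 in GFP. After Hoxc5 there were 13 in ΔCC, 10 in ΔMBD, 15 in WT and 9 in GFP. The middle stretch held 57.1% of the cluster's numbers in ΔCC, 46.7% in ΔMBD, 22.2% in WT and 73.6% in GFP. The ends of the stretches are each library's own outermost peaks, so their lengths in bp differ.

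**Figure D4:**
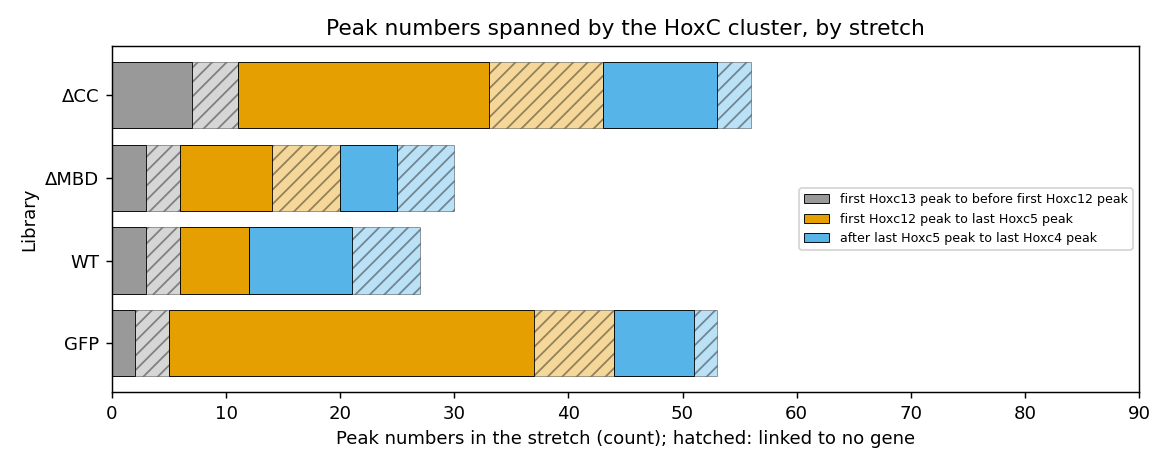
Bars give the count of peak numbers (x axis) spanned by the HoxC cluster in the ΔCC, ΔMBD, WT and GFP libraries from top to bottom. They are divided into 3 stretches, with numbers not linked to a HoxC gene hatched. On the axis, no gene means no HoxC gene. The middle stretch, from the first Hoxc12 to the last Hoxc5 peak, holds 32, 14, 6 and 39 numbers.

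The genes on either side of the cluster were not listed. The 3 protein-coding genes before Hoxc13 (Atf7, Atp5g2 and Calcoco1) and the 3 after Hoxc4 (Smug1, Cbx5 and Hnrnpa1) had no linked peak in any library. Of all protein-coding symbols, 4.61% (GFP) to 7.37% (ΔMBD) were listed per library, so an unlisted gene was the usual case. Cbx5 encodes the heterochromatin protein HP1 alpha and Smug1 a DNA repair glycosylase. The next listed gene after Hoxc4 by peak number was on chromosome 16 in every library.

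Pairs of libraries were then compared at the 9 genes, and the pairs share libraries. ΔCC had more peaks than WT at 9 of 9 HoxC genes, with a median difference of 1 peak and at least 3 more at Hoxc13, Hoxc8 and Hoxc6. Of the 1788 genes listed in ΔCC or WT, 27.9% had more peaks in ΔCC, 48.3% had fewer, and 3.3% had at least 3 more. The HoxC genes therefore all stood on the less frequent side of this pair.

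ΔMBD had more peaks than WT at 3 HoxC genes (Hoxc11, Hoxc10 and Hoxc6), the same number at 4 and fewer at 2 (Hoxc8 and Hoxc4). Over all genes listed in either, 38.3% had more in ΔMBD and 26.5% had fewer. The median difference was 0 both at HoxC and over all genes.

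WT had fewer peaks than GFP at 7 of the 9 genes, with a median difference of -4 at HoxC, against 1 over the 1736 genes listed in either. Hoxc13 and Hoxc4 were the 2 with more in WT. At 6 genes WT had at least 3 fewer. In the whole of this pair 55.8% of genes had more peaks in WT, 22% had fewer and 3% had at least 3 fewer.

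ΔMBD had fewer peaks than GFP at 8 of 9 genes, all but Hoxc13, and at least 3 fewer at 6. Over all genes listed in either, 60.5% had more in ΔMBD, 18.8% had fewer and 2.41% had at least 3 fewer. ΔCC and GFP differed in both directions. ΔCC had more peaks at Hoxc13 and Hoxc4, the same number at Hoxc9 and Hoxc8, and fewer at the other 5, where 45.2% of all genes had more in ΔCC and 25.7% had fewer. At the ends of the cluster ΔCC was thus the library with the most peaks, and in the middle GFP was, except for the ties at Hoxc9 and Hoxc8.

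Between the deletions, ΔCC had more peaks than ΔMBD at 7 HoxC genes and the same number at Hoxc11 and Hoxc10. Over all genes, 23.4% had more in ΔCC and 52.9% had fewer. The pattern with both ΔCC and GFP above both WT and ΔMBD was found at 5 of the 9 genes (Hoxc12, Hoxc9, Hoxc8, Hoxc6 and Hoxc5), and at 7.13% of the 1935 listed genes.

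Positions were compared by asking for a centre of the other library within 1 kb at the same gene. Of the ΔCC HoxC peaks, 17 of 39 (43.6%, interval 27.8 to 60.4) had a WT neighbour, against 66.4% of ΔCC peaks over all genes. Of the WT peaks, 13 of 18 (72.2%, 46.5 to 90.3) had a ΔCC neighbour, against 52.0% over all genes. Of the ΔMBD peaks, 11 of 16 (68.8%, 41.3 to 89.0) had a WT neighbour, and 13 of 18 WT peaks (72.2%) had a ΔMBD one. Over all genes these were 72.2% and 77.2%, near the HoxC values.

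Of the WT peaks, 15 of 18 (83.3%, 58.6 to 96.4) had a GFP neighbour, against 43.5% over all genes. Of the GFP peaks, 14 of 41 (34.1%, 20.1 to 50.6) had a WT neighbour, against 65.9% over all genes. In a window of 1 kb around the start sites, 62.5% of 8 WT peaks had a GFP neighbour. There 71.4% of 7 GFP peaks had a WT one. With so few peaks the order of these 2 shares cannot be read.

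Of the ΔCC peaks, 29 of 39 (74.4%, 57.9 to 87.0) had a GFP neighbour, and of the GFP peaks 28 of 41 (68.3%, 51.9 to 81.9) had a ΔCC one. Over all genes these were 63.8% and 73.6%, both inside the intervals at HoxC. Of the ΔMBD peaks, 12 of 16 (75%, 47.6 to 92.7) had a GFP neighbour, against 41.3% over all genes. Of the GFP peaks, 13 of 41 (31.7%, 18.1 to 48.1) had a ΔMBD neighbour, against 67.5% over all genes. Of the ΔCC peaks, 17 of 39 (43.6%, 27.8 to 60.4) had a ΔMBD neighbour, and of the ΔMBD peaks 11 of 16 (68.8%, 41.3 to 89.0) had a ΔCC one, against 68.0% and 50% over all genes. A share of this kind also moves with the number of peaks in the other library, and that part was not tested.

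The shares for ΔCC in WT, WT in ΔCC, GFP in WT and GFP in ΔMBD were over 1.5 times higher with Hoxc4 than without it, a division made after the values were seen. At Hoxc4 all 10 ΔCC peaks had a WT neighbour and all 9 WT peaks had a ΔCC one. Neighbouring Hoxc4 centres were at most 1381 bp apart in ΔCC and 1824 bp apart in WT. Any centre inside such a run has a neighbour within 1 kb, so these counts do not show shared positions. At the other 8 genes, 7 of 29 ΔCC peaks (24.1%, 10.3 to 43.5) had a WT neighbour and 4 of 9 WT peaks (44.4%, 13.7 to 78.8) a ΔCC one. There 7 of 34 GFP peaks (20.6%, 8.70 to 37.9) had a WT neighbour and 7 of 34 had a ΔMBD one. Without Hoxc4, 21 of 29 ΔCC peaks (72.4%, 52.8 to 87.3) had a GFP neighbour.

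The other Hox clusters had fewer peaks per gene than HoxC in ΔCC, WT and GFP. HoxC had 4.33 distinct peaks per gene in ΔCC, 1.78 in ΔMBD, 2 in WT and 4.56 in GFP. HoxB had 2.9, 1.8, 1.5 and 3.1 in the same order, HoxA 1.64, 1.09, 0.818 and 1.64, and HoxD 1.89, 0.667, 0.778 and 1.89. In ΔMBD HoxB stood just above HoxC. In WT the lead of HoxC over HoxB rested on Hoxc4. Without that gene 9 WT peaks remained at HoxC, against 15 at the 10 HoxB genes. ΔCC and GFP were above ΔMBD and WT in each of the 4 clusters. Both ΔCC and GFP were above both ΔMBD and WT at 5 of 9 HoxC genes, 2 of 11 HoxA genes, 4 of 10 HoxB genes and 5 of 9 HoxD genes. No test separates HoxC from the other clusters here.

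**Figure D5:**
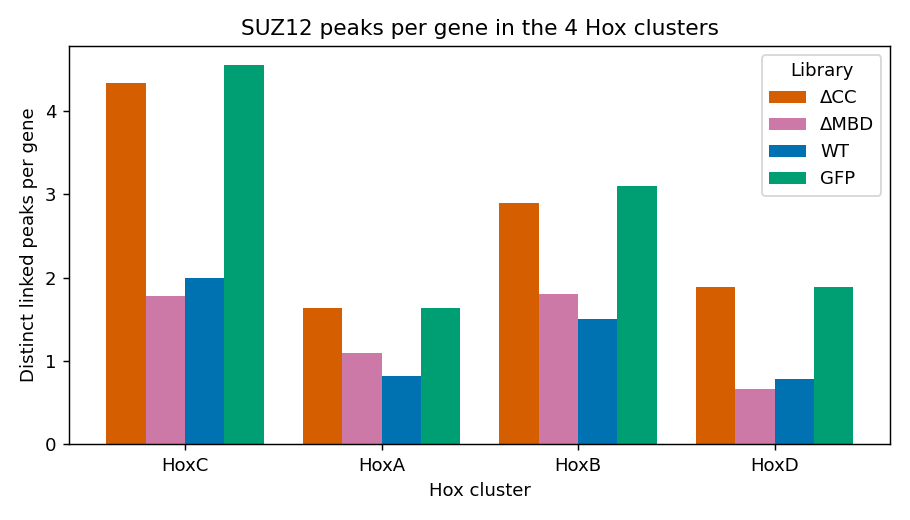
Bars give the distinct linked SUZ12 peaks per gene (y axis) in the HoxC, HoxA, HoxB and HoxD clusters (x axis) for the ΔCC, ΔMBD, WT and GFP libraries. HoxC reaches 4.33 in ΔCC and 4.56 in GFP, above 1.78 in ΔMBD and 2 in WT.

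Genes that work with or above the Hox genes were also looked up. Of 16 such genes, 5 were listed in ΔCC, 7 in ΔMBD, 6 in WT and 5 in GFP, with 17, 17, 19 and 15 peaks. Of all protein-coding symbols, 5.37%, 7.37%, 7.32% and 4.61% were listed in the same order. Cdx2, a caudal-type regulator that switches on Hox genes, had 3 peaks in ΔCC, 3 in ΔMBD, 5 in WT and 4 in GFP. Cyp26a1, which degrades retinoic acid, had 4, 2, 4 and 3 in the same order. Meis1, a DNA-binding partner of Hox proteins, had 3, 1, 1 and 2. Meis2, of the same family, had 4, 4, 3 and 2. Meis1 was the 1 gene of the 16 with both ΔCC and GFP above ΔMBD and WT, as were 7.13% of the 1935 listed genes. Evx1 and Evx2, homeobox genes beside HoxA and HoxD, each had 5 peaks in ΔCC, 1 in ΔMBD, 1 in WT and 2 in GFP. ΔCC was the highest library there, as at Hoxc13. Unlike at Hoxc13, GFP was also above ΔMBD and WT.

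The genes outside HoxC with the most similar peak numbers were found by the sum of absolute differences over the 4 libraries. The gene closest to Hoxc8 was Foxd3, a neural crest transcription factor, with 7 peaks in ΔCC, 1 in ΔMBD, 1 in WT and 7 in GFP, a sum of 3. Gm13275 and Hoxb3 followed at a sum of 6. Fezf1, a forebrain zinc finger gene, was closest to Hoxc6 with 4, 2, 1 and 5 peaks, a sum of 1. Gm13288 and Nkx2-5 were next to Hoxc6 at a sum of 2. En1, Atoh1 and Pax2, regulators of the early nervous system, were each at a sum of 1 from Hoxc11. Closest to Hoxc10 at a sum of 1 were 5 genes, among them Bean1, Hoxa5 and Hoxb6. Ankrd63 and Gm10718 were closest to Hoxc13 with 6, 3, 2 and 2 peaks each. At a sum of 3 from Hoxc12 were 5 genes, among them Dbx1, a spinal interneuron gene, Emx2 and Fezf1. Hoxc4 had no close match: Ebf1 came nearest at a sum of 9. For Hoxc5, with few peaks, 15 genes tied at a sum of 1.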

How the data were processed

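SUZ12 ChIP-seq was deposited for 4 libraries of Mbd3 knock-out ESCs. Per the submitters' processing notes, bcl2fastq 2.18.0.12, MACS2 and the build mm9 were used. Per the file headers, peaks were linked with GREAT 3.0.0 to the 2 nearest genes, with an extension of 5000 bp at most and curated domains included. Aligner, MACS2 settings, peak threshold and any use of the input were not given in the sources used here. The deposited tables hold peak names and signed distances in bp as their only values. By the convention of GREAT the distance is that of the middle of the peak. Positions of the genes on mm9 were not used here.

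Peaks within 5 kb of the 9 genes were counted once per library by name. The members and the companion lists were chosen with earlier results of these data known. Named genes were the 9 members, genes sharing a peak with one, and up to 3 genes most like each member whose peak number varied by at least 3. Ties were taken in alphabetical order. Genes of the tables were matched to RefSeq symbols and synonyms (GRCm38.p6), with 21900 protein-coding symbols. The matching of centres was run on simulated data and recovered 600 of 600 placed peaks at 400 genes. These were placed within the matching distance, so the run checks the code only. False matches in dense runs of peaks were not tested. Python 3.11.15, SciPy 1.17.1 and matplotlib 3.10.9 were used. Alternatives were other windows, 2 or more peaks per gene, the closest gene only, joined peaks and other matching distances. All deposited links and the common scale of Hoxc5 and Hoxc6 were also used.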

Additional observations from a re-analysis of the deposited data

How the results depend on the processing

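The window decided how many genes and peaks were counted. At 1 kb the HoxC genes listed were 4 in ΔCC, 3 in ΔMBD, 7 in WT and 5 in GFP, so WT held the most. With at least 2 peaks required, ΔCC held 8 of its 9 listed members, ΔMBD 5 of 8, WT 3 of 7 and GFP 9 of 9. Among all listed genes, 627 of 1221 had as many in ΔCC and 546 of 1051 in GFP. The same held for 910 of 1677 in ΔMBD and 752 of 1664 in WT. With so few members, the ΔMBD and WT values were near those over all genes. HoxC peaks numbered 6 in ΔCC, 3 in ΔMBD, 8 in WT and 7 in GFP at 1 kb, and 15, 9, 10 and 20 in that order at 2 kb. Without Hoxc4, an alternative chosen after seeing the data, ΔCC had 29, ΔMBD 11, WT 9 and GFP 34. With centres within 1 kb joined, the numbers were 28, 14, 15 and 31.

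Shares of matched peaks moved with the window and the matching distance. At a window of 1 kb, 66.7% of ΔCC peaks and 71.4% of GFP peaks had a WT neighbour, and 25% of WT peaks had a ΔMBD one. At that window the share was 0% for ΔMBD peaks in GFP, GFP in ΔMBD, ΔCC in ΔMBD and ΔMBD in ΔCC, where ΔMBD had 3 peaks. At a matching distance of 500 bp the share was 25.6% for ΔCC in WT, 44.4% for WT in ΔMBD, 46.2% for ΔCC in GFP, 48.8% for GFP in ΔCC, 43.8% for ΔMBD in GFP, 17.1% for GFP in ΔMBD and 23.1% for ΔCC in ΔMBD. At 2000 bp it was 94.4% for WT in ΔCC, 89.7% for ΔCC in GFP, 100% for ΔMBD in GFP and 58.5% for GFP in ΔMBD. The cause was not tested. The other 54 shares stayed inside the interval of the value reported. Among them, counting all deposited links changed no share, because it added no HoxC peak, so it was no separate check. The common scale of Hoxc5 and Hoxc6 changed no share either. Widths, heights and depth are unknown, so a gene without a linked peak was not shown to lack SUZ12. No paired analysis was possible because each group has 1 library.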
